A study of Mus musculus with 5 samples.

Results

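The solute carriers, the membrane transporters whose genes carry the Slc symbol, were described in mouse liver over 5 feeding groups. Members were the probe sets whose only annotated gene symbol follows the Slc pattern of a family number, the letter a and a member number. The probe set with the highest mean log2 signal over the arrays represented each gene, which gave 244 genes of 12393 named on the array. The pattern also takes in 3 Slc-named genes that encode no carrier, such as the scaffold protein gene Slc9a3r1, and these were kept as a class of their own.

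Total RNA from pooled livers was hybridised to 1 oligonucleotide array per group, and how many livers went into a pool is not stated in the sources used here. All mice were C57B/L, were 8 weeks of age at the start and had 2 weeks of maintenance before the feeding period. The chow groups received standard chow for 1 week or for 10 weeks, and the diet groups received an atherogenic diet, a feed that promotes fatty lesions of the arteries, for the same times. The fifth group was fed the atherogenic diet for 10 weeks, the last 3 of them with atorvastatin, a statin that inhibits the rate-limiting enzyme of cholesterol synthesis. No group received atorvastatin on chow, and the sources used here state neither the sex of the mice nor what the diet contained. The source name of the 1-week diet sample reads chow, whereas its title, description and protocols give the diet, and the title was followed. With 1 array in each group no test was possible, so every difference below is between pools of livers and has no replicate check.

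Solute carriers move sugars, amino acids, fatty acids, nucleosides, vitamins, organic ions and metals across the plasma membrane, and the Slc25 family moves metabolites across the inner mitochondrial membrane. Hepatocytes use them to take up nutrients and drugs from portal blood, to exchange substrates of the urea cycle, gluconeogenesis and fatty acid oxidation between cytosol and mitochondria, and to release glucose, iron and ketone bodies. Transcription of some carriers is known to respond to amino acid supply, to metals, to the circadian clock or to sterols, and short promoter letters are associated with each of these.

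Promoter windows from RefSeq (assembly GRCm38.p6, 250 bases before to 50 after a transcription start) were available for 189 of the 244 genes, in 252 windows, and were searched on both strands. The sterol regulatory element letters TCACNCCAC stood in 1.24% of all 32851 windows and in 4 of the 252 solute carrier windows (1.59%). The amino acid response letters TGATGNAAT stood in 0.965% of all windows and 0.794% of solute carrier windows, the metal response letters TGCNCNC in 51.03% and 56.35%, and the clock E-box CACGTG in 7.15% and 11.9%. Of the 14 genes that differed past 2-fold between the diet and chow at 10 weeks, 10 had a window, and the E-box stood in those of Slc41a3 and Slc16a1. These windows are printed 5′ to 3′ with the E-box in capitals, because one gene was higher and the other lower on the diet. The window of Slc41a3, a magnesium transporter, is chr6:90618996-90619295 on the plus strand, and its E-box begins at position -213 from the start site, where it overlaps metal response letters that begin at -210. The window of Slc16a1, the monocarboxylate transporter MCT1, is chr3:104638414-104638713 on the plus strand, with the E-box at -200.
Slc41a3: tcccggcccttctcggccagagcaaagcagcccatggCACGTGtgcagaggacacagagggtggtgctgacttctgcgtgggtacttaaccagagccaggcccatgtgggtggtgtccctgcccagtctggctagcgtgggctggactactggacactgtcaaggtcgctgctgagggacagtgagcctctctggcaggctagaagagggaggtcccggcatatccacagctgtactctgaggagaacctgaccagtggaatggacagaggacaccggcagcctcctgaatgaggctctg
Slc16a1: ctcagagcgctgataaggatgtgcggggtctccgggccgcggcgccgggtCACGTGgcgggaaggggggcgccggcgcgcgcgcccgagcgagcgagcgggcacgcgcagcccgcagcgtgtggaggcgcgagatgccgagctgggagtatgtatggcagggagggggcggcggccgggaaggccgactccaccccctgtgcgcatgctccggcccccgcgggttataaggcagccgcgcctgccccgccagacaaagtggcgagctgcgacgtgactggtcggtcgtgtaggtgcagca
Sterol regulatory element letters stood in the windows of Slc23a2, Slc2a8 and Slc9a3r2. The windows of Slc23a2, a vitamin C transporter, and Slc9a3r2, a scaffold protein, are printed with these letters in capitals, because the probe sets used for both genes were dimmer with atorvastatin than on the diet alone. Slc2a8, a glucose transporter, was not, at a log2 ratio of 0.22. The other measured probe sets of Slc23a2 and Slc9a3r2, given below, did not share the difference in size. The Slc23a2 window is chr2:132145271-132145570 on the minus strand, with the letters 27 bases before the start site. A second Slc23a2 window that overlaps it holds the same letters. The Slc9a3r2 window is chr17:24644908-24645207 on the minus strand, with the letters on the opposite strand 10 bases before the start site. A match describes the letters and is neither a binding site nor a cause, and a window without a match says only that these letters are not in it.
Slc23a2: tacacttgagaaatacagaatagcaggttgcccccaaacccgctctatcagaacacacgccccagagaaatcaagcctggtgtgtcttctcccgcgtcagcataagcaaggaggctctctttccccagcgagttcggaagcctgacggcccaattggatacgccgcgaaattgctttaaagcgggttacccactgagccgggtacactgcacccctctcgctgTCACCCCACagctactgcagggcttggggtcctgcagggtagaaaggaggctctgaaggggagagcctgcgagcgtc
Slc9a3r2: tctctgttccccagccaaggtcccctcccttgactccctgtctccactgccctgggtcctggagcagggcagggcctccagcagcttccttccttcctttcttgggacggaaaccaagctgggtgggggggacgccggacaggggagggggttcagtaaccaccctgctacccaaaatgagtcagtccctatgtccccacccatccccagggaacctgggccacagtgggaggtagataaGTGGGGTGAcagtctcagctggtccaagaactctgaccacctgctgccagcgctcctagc

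The signals are array intensities with no unit, so they compare arrays for 1 gene and never 1 gene with another. A floor of 139, the 40th percentile of all signals, was set under them. Of the 244 solute carriers 198 (81.1%) lay above the floor on at least 1 array, against 79.2% of all genes, 142 on all 5 arrays and 46 on none. A gene counted as measured in a comparison if it was above the floor on either array, and a fold with one side at the floor is given as a lower bound. The hepatocyte marker list stood above the floor on all 5 arrays for 13 of 13 genes, with a summed signal of 291433 to 539766, and 4 of 5 cholangiocyte markers were below it on every array. The 10-week chow array stood apart in its added control transcripts, which were 5.61 times as bright as on the 1-week chow array, while the other arrays gave 1.08 to 1.95 times. The 18S ribosomal RNA signal was 13944 on the atorvastatin array and 437 to 2185 elsewhere. The part of these differences in the results was not tested, and the genes past 2-fold against the 10-week chow array, and the marker lists, are therefore also given against the 1-week one.

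Some of the carriers best known from liver were similar on the 5 arrays, and others differed past 2-fold between arrays. Of 43 such genes listed for their known role, 37 had a named probe set, and 36 were above the floor on some array. Slc10a2, the bile acid transporter of the ileum, was below it on all 5. Slc2a2, the glucose transporter GLUT2, read 4609 on chow and 5416 on the diet at 1 week, and 5262 on chow, 6415 on the diet and 4656 on the diet with atorvastatin at 10 weeks. Slc27a5, which activates bile acids for conjugation, read 12149, 12699, 16429.5, 16527 and 14742 on the same arrays in the same order. Slc38a4, a transporter of neutral amino acids into hepatocytes, read 11412, 10001, 11518, 11429 and 10362. For these 3 genes no array was as much as 2-fold from another. Slc40a1, the iron exporter ferroportin, read 4408, 3741, 4179, 4352 and 5251, with the highest value on the atorvastatin array. Its second probe set read 1987, 935, 1822, 2006.5 and 2355, with a log2 ratio of -1.09 between the diet and chow at 1 week. Slc38a3, the glutamine transporter SNAT3, read 5867, 9115, 11111, 11463 and 10497, lowest on the 1-week chow array. Slc25a20, the carnitine-acylcarnitine carrier of fatty acid oxidation, read 4849, 5558, 2746, 4902 and 4153, lowest on the 10-week chow array, whereas its second probe set read 2095, 2161, 2598, 1808.5 and 1904, highest there. In the heat map of 34 of these carriers the log2 signals lie between -0.72 and 0.75 of each gene's own mean. Among them Slc25a15 ran from 3757 to 9897, Slc33a1 from 232 to 570 and Slc16a1 from 1095 to 2241. Genes below the floor on some array, such as Slc6a6 described below, are not in it.

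**Figure D1:**
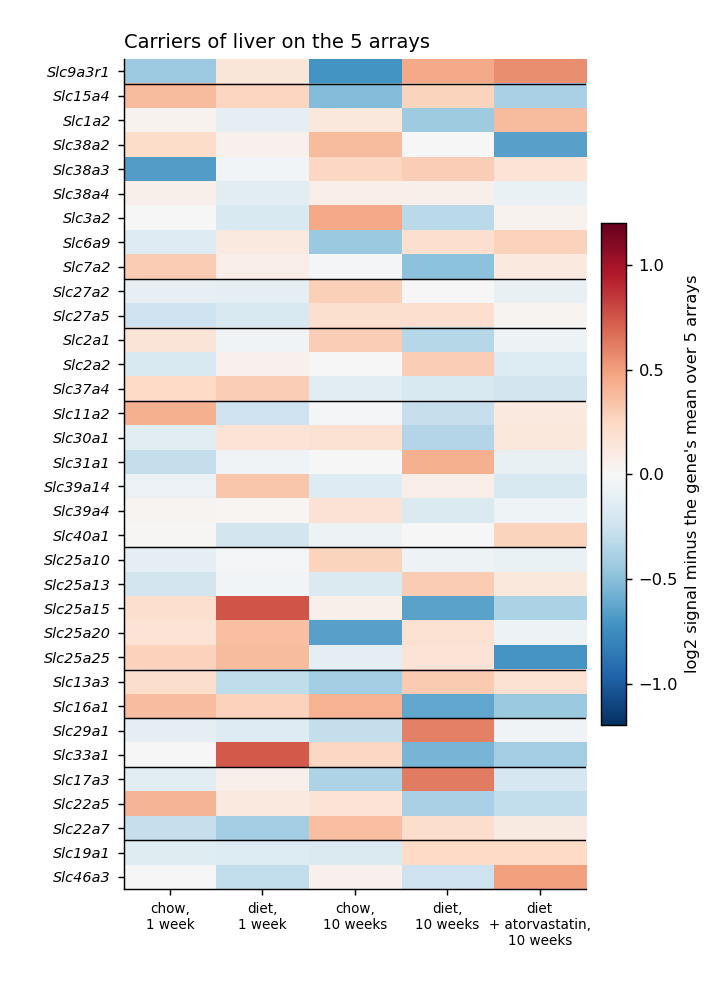
Log2 signal of 34 carriers listed for their role in liver, each minus the gene's mean over the 5 arrays (colour), on 1 array per group (columns), grouped by substrate family between the black lines; genes with a signal at the floor on some array are not drawn. Values run from -0.72 to 0.75, and most rows are pale, with Slc25a15, Slc33a1, Slc16a1, Slc29a1 and Slc17a3 among those with strong colours.

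The diet was compared with chow at 10 weeks to ask which carriers differ in the liver after prolonged feeding. Of 190 measured solute carriers 9 were higher and 5 lower past 2-fold, 7.37% of them against 6.65% of all measured genes, of which 3.59% were higher and 3.07% lower, so the share is near the background and is not a result about the solute carriers. The median log2 ratio was 0.07, beside 0.05 over all measured genes. The higher genes were spread over vitamin, mitochondrial, metal, inorganic ion, amino acid, nucleobase and sugar carriers and a scaffold protein. The lower genes were 2 mitochondrial carriers, a monocarboxylate, a vesicular monoamine and a lysosomal amino acid carrier. In a pool of livers, fewer cells of a type and less RNA per cell cannot be told apart.

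Vitamin C transport gave the largest ratio with both signals above the floor. Slc23a1, the sodium-dependent vitamin C transporter SVCT1, read 499.6 on chow and 340.4 on the diet at 1 week, and 433 on chow, 1328 on the diet and 736 on the diet with atorvastatin at 10 weeks. Both 10-week diet arrays were above the other 3, and the diet without atorvastatin was the highest of the 5. Its log2 ratio of diet over chow was 1.62 at 10 weeks (3.06-fold), 1.41 against the 1-week chow array, and -0.55 between the 1-week arrays. Its relative Slc23a2, the transporter SVCT2, read 613, 733, 779, 997 and 542 in the same order, a log2 ratio of 0.36 at 10 weeks. Among carriers of vitamins, choline and heme 10 of 13 measured genes had a ratio above 1 and 3 below, beside 5017 of 9232 above 1 over all genes. The family median log2 ratio was 0.27, and 1 gene was past 2-fold. At 1 week 9 of 12 measured genes of this family were below 1, beside 4743 of 8799 over all genes. Slc19a1, the reduced folate carrier, read 435, 431, 426, 569.5 and 567, with both 10-week diet arrays above the others by a small margin. Its second measured probe set went the other way on the diet, with 256, 247, 444, 116 and 376.

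Mitochondrial carriers were split evenly, with 14 of 28 measured genes above and 14 below a ratio of 1, a median log2 ratio of 0.00, and 1 higher and 2 lower past 2-fold. Slc25a23, which exchanges ATP-magnesium for phosphate, read 1167 on chow and 1102 on the diet at 1 week, and 876 on chow, 2272 on the diet and 1252 on the diet with atorvastatin at 10 weeks. The 10-week diet array stood above the other 4, at a log2 ratio of 1.37 over chow. Slc25a22, the mitochondrial glutamate carrier, read 4030.4, 3196, 3179, 1486 and 1609.6 in the same order. Both 10-week diet arrays were below the other 3, at a log2 ratio of -1.10 for the diet alone and -0.98 with atorvastatin. Slc25a30, a mitochondrial carrier first described in kidney, read 809, 1455, 3778, 1327 and 938. On the probe set used the 10-week chow array alone was high, so the log2 ratio was -1.51 against that array and 0.72 against the 1-week chow array. Another probe set read 1008, 918, 2288, 1805 and 1175, and a further one 194, 165, 858, 546 and 326. On both the 10-week diet array was also above the 1-week arrays. The last measured probe set, with 478, 795, 1740, 588.5 and 1049, did not share this. Slc25a15, the ornithine carrier of the urea cycle, read 6770.4, 9897, 6142, 3757 and 4524, a log2 ratio of -0.71 at 10 weeks and 0.55 at 1 week. Its other probe set gave -0.83 and -0.52, so the sign at 1 week differed between them. Slc25a47, a carrier found in liver mitochondria, read 18133, 15670.4, 17977, 12129 and 12555, with both 10-week diet arrays below the other 3.

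Among metal carriers 2 of 25 measured genes were higher and none lower past 2-fold, with a median log2 ratio of 0.08. Slc41a3, the magnesium transporter whose promoter window is shown above, read 843 on chow and 712 on the diet at 1 week, and 449.8 on chow, 1143 on the diet and 657 on the diet with atorvastatin at 10 weeks. The 10-week diet array was highest and the 10-week chow array lowest, at a log2 ratio of 1.35 that was 0.44 against the 1-week chow array. Slc30a3, a zinc transporter of vesicles, read 381, 477, 317, 741 and 625 in the same order, with both 10-week diet arrays above the other 3 and a log2 ratio of 1.22. Slc39a14, the zinc and iron importer ZIP14, read 1161, 1539, 1094, 1289 and 1073, and Slc31a1, the copper importer CTR1, read 743, 877, 899, 1214 and 849.9, neither of them past 2-fold between any pair of the 5 arrays. In a list of 18 genes of iron, zinc and copper handling without the Slc symbol, 0 of 17 measured were higher and 2 lower past 2-fold, the metallothioneins Mt1 and Mt2, which bind zinc and copper. Their log2 ratios were -1.90 and -1.32, and against the 1-week chow array -0.97 and -0.23.

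Amino acid and peptide carriers had 1 higher and 1 lower gene of 36 measured, and a median log2 ratio of 0.05. Slc6a6, the transporter of taurine, which is used in bile acid conjugation, read 457 on chow and 360.3 on the diet at 1 week, and 76.8 on chow, 429.9 on the diet and 529.6 on the diet with atorvastatin at 10 weeks. The 10-week chow array was below the floor and the other 4 were above it, so the ratio was at least 3.10-fold against that array and -0.09 on the log2 scale against the 1-week chow array. Slc66a1, the lysosomal exporter of cationic amino acids, read 308, 595, 331, 63.4 and 202 in the same order. It was below the floor on the 10-week diet array alone, at least 2.38-fold lower than on chow. Slc3a2, the heavy chain shared by several amino acid exchangers, read 978, 862, 1339.6, 784 and 1009, a log2 ratio of -0.77, or -0.32 against the 1-week chow array. Slc6a13, a GABA and taurine transporter of liver, read 2281, 1927, 2102, 3194 and 1803, a log2 ratio of 0.60. Among 16 measured genes of the ATF4 amino acid response, a list without Slc genes, 0 were higher and 1, the hormone gene Fgf21, lower past 2-fold, and against the 1-week chow array 1 was higher and 2, among them Fgf21, lower.

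Carriers of sugars, nucleobases, carboxylates, inorganic ions and vesicular transmitters gave the remaining differences past 2-fold, and organic ion and fatty acid carriers gave none. Slc2a9, a urate transporter of the glucose transporter family, read 309.7 on chow and 265 on the diet at 1 week, and 251 on chow, 521 on the diet and 257 on the diet with atorvastatin at 10 weeks. The 10-week diet array stood above the other 4, at a log2 ratio of 1.05 over chow. Slc43a3, a nucleobase transporter, read 524, 314, 213, 448 and 285 in the same order, a log2 ratio of 1.07 that was -0.23 against the 1-week chow array, which was the highest of the 5. Slc5a5, the sodium-iodide symporter, read 169, 187, 74.2, 345 and 231, with the 10-week chow array at the floor and a ratio of at least 2.48-fold. Slc16a1, which moves lactate, pyruvate and ketone bodies, read 2173, 2041, 2241, 1095 and 1239.9. The 3 arrays from other groups lay close together and both 10-week diet arrays lay below them, at log2 ratios of -1.03 and -0.85 against 10-week chow. Slc18a1, a vesicular monoamine transporter, read 197, 187, 337, 167 and 249.8, with the 10-week chow array the highest, and a log2 ratio of -1.01. Just inside the 2-fold rule on the higher side stood Slc2a9 and just outside it Slc17a3, a transporter of urate and organic anions, which read 940.1, 1069, 792, 1580.1 and 892 for a log2 ratio of 0.996. On the lower side Slc18a1 lay just inside, and the next gene outside was Slc16a8, a lactate transporter, at a log2 ratio of -0.82. Slc29a1, the nucleoside transporter ENT1, read 1864, 1805, 1648, 3057 and 1950.4, highest on the 10-week diet array at a log2 ratio of 0.89.

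Slc9a3r1 encodes NHERF1, a scaffold that anchors carriers and channels at the apical membrane, and is no carrier itself. It read 1979 on chow and 2955 on the diet at 1 week, and 1626 on chow, 3656 on the diet and 3926 on the diet with atorvastatin at 10 weeks. All 3 diet arrays were above both chow arrays, as they were for Slc30a3 and Slc5a5, and the log2 ratio at 10 weeks was 1.17. Its 2 other probe sets gave log2 ratios of 1.11 and 0.70. Macrophage and Kupffer cell markers also differed between the 10-week arrays, with 12 of 13 listed genes above the floor on all 5 arrays, 4 of 12 measured markers higher past 2-fold and a median log2 ratio of 0.75. Their summed signal ran from 11247 on the 10-week chow array to 28832 on the atorvastatin array. Against the 1-week chow array 0 of 13 were higher and 1 lower, with a median of 0.13. Slc11a1, a metal transporter of macrophage phagosomes named here after its values were seen, read 433, 371, 322, 604 and 563, log2 ratios of 0.91 and 0.48 against the 10-week and the 1-week chow array. Of 11 endothelial markers, 9 of them above the floor on all 5 arrays, 3 were higher and 0 lower past 2-fold against 10-week chow, with a median of 0.44, and 1 was higher and 2 lower against 1-week chow, with a median of 0.09. Their summed signal ran from 5425 on the 10-week chow array to 8062 on the 10-week diet array. The median hepatocyte marker had a log2 ratio of -0.47 against the 10-week chow array and 0.37 against the 1-week one. The part of these lists in the carrier ratios was not tested.

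**Figure D2:**
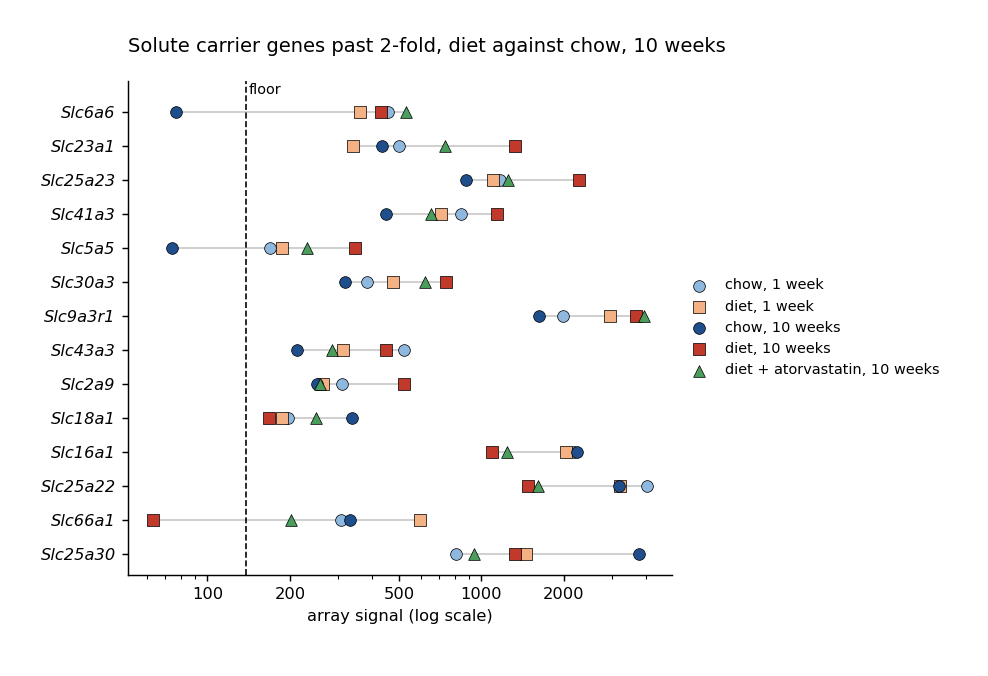
Array signal (log scale) of the 14 solute carrier genes past 2-fold between the diet and chow at 10 weeks, 1 symbol per array, with the grey line spanning the 5 arrays and the dashed line at the floor of 139. Slc23a1 and Slc25a23 are highest on the 10-week diet array, Slc16a1 and Slc25a22 are low on both 10-week diet arrays, and for Slc6a6 and Slc25a30 it is the 10-week chow array that stands away from the rest.

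The choice of chow array decided part of these ratios. Against the 1-week chow array 9 of 192 measured solute carriers were past 2-fold, 4.69% against 6.34% of all genes, and 4 genes were past 2-fold against each chow array in the same direction. These were Slc23a1 and Slc5a5 on the higher side and Slc25a22 and Slc66a1 on the lower side. The share of all genes past 2-fold against both chow arrays was not counted, so these 4 are not a result about the solute carriers. Against the 1-week chow array the sign was opposite for Slc25a30, Slc43a3 and Slc6a6. The other 7 genes kept their sign and fell short of 2-fold. On the log2 scale Slc25a23 and Slc30a3 gave 0.96 each, Slc9a3r1 0.89, Slc2a9 0.75, Slc41a3 0.44, Slc16a1 -0.99 and Slc18a1 -0.24. Between the chow arrays themselves 4 of 187 measured genes were higher and 3 lower at 10 weeks past 2-fold, 3.74% against 4.39% of all genes (2.44% higher and 1.95% lower). Cell type markers moved with that pair as well. At 10 weeks the median hepatocyte marker was at 0.64 on the log2 scale with 3 of 13 higher past 2-fold, the median macrophage and Kupffer cell marker at -0.69 with 4 of 13 lower, and the median endothelial marker at -0.43 with 2 of 11 lower. Their part in the ratios of the chow pair was not tested. Slc25a30 had the largest ratio of that pair, at 2.22 on the log2 scale, and Slc6a6 was at least 3.29-fold lower at 10 weeks. Of the 14 genes past 2-fold with the diet, 3 had another measured probe set. That of Slc25a30 was also past 2-fold (log2 -1.56) and its others gave -0.34 and -0.65, whereas the second measured probe set of Slc6a6 gave -0.62, the opposite sign. Over all 56 solute carriers with several measured probe sets, those of 26 agreed in sign in the comparison of diet and chow at 10 weeks. Family medians moved with the chow array too. Against the 1-week one they were 0.53 for carriers of vitamins, choline and heme, 0.15 for metal carriers, 0.07 for amino acid and peptide carriers and -0.07 for mitochondrial carriers.

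**Figure D3:**
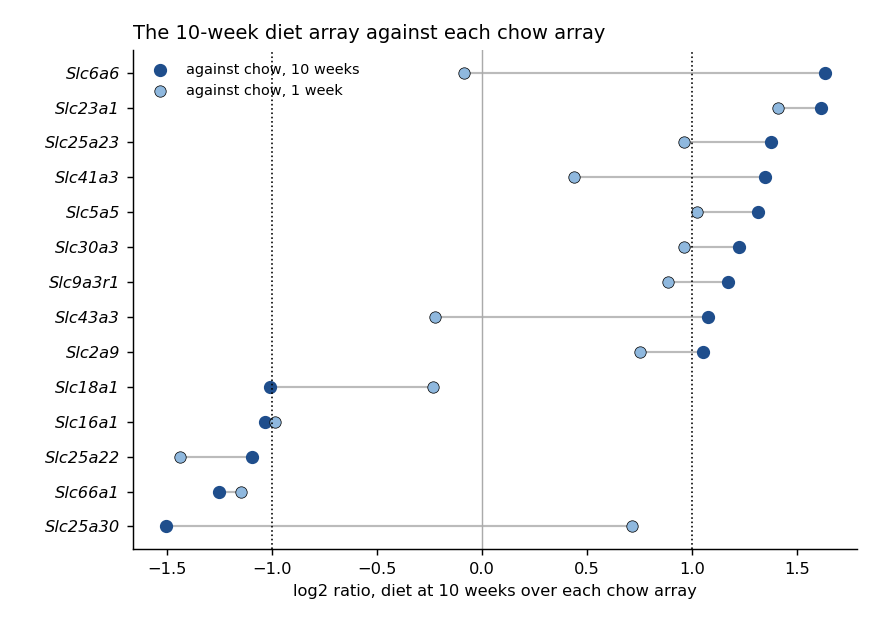
Log2 ratio of the 10-week diet array over the 10-week chow array (dark points) and over the 1-week chow array (light points) for the 14 genes past 2-fold against the former, with dotted lines at 2-fold. Both points of Slc23a1, Slc5a5, Slc25a22 and Slc66a1 lie past a dotted line, and the points of Slc6a6, Slc43a3 and Slc25a30 lie on opposite sides of 0.

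At 1 week the diet was set against chow to ask which carriers differ early. None of 178 measured solute carriers was higher past 2-fold and 4 were lower, 2.25% against 2.3% of all genes (1.06% higher and 1.24% lower), again near the background. The median log2 ratio was -0.11, beside -0.03 over all measured genes. Slc34a2, a sodium-phosphate cotransporter, read 354 on chow and 146 on the diet at 1 week, and 271 on chow, 340.2 on the diet and 118 on the diet with atorvastatin at 10 weeks. The 1-week diet and the atorvastatin arrays were low and the other 3 high, at a log2 ratio of -1.28 at 1 week. Slc13a2, a transporter of dicarboxylates such as succinate, read 333, 148, 254, 325 and 343 in the same order, and the 1-week diet array was the only low one, at -1.17. Slc2a4, the insulin-responsive glucose transporter GLUT4 of muscle and fat, read 350.2, 169, 446, 287 and 326, a log2 ratio of -1.05. Slc22a27, an organic anion transporter of the mouse, was at the floor on the 1-week diet array, at least 2.44-fold lower. The 1-week diet signals of these 4 genes lay between 136 and 169, near or below the floor.

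About as many carriers changed direction between the times as kept it. Of 171 genes measured at both, 40 had ratios above 1 and 44 below 1 at both times, 59 were above at 10 weeks and below at 1 week, and 28 the reverse. Opposite signs thus stood in 50.9% of solute carriers, beside 53.7% of all genes measured at both times. No gene was past 2-fold at both. Slc33a1, which imports acetyl-CoA into the endoplasmic reticulum, read 343, 570.3, 407, 232 and 257, with the highest value on the 1-week diet array and the lowest on the 10-week one. Organic cation, organic anion and bile acid carriers were below a ratio of 1 in 13 of 18 measured genes at 1 week, beside 53.9% of all genes, and in 9 of 19 at 10 weeks, beside 45.7%.

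Atorvastatin on the diet was compared with the diet alone to ask which carriers differ with the statin, and that comparison shares the 10-week diet array with the one above, so opposite signs between them are partly built in. Of 188 measured solute carriers 2 were higher and 4 lower past 2-fold, 3.19% against 4.28% of all genes (2.16% higher and 2.12% lower), with a median log2 ratio of -0.09 beside -0.02. Slc27a1, the fatty acid transport protein FATP1, read 362 on chow and 504 on the diet at 1 week, and 276 on chow, 196 on the diet and 515 on the diet with atorvastatin at 10 weeks. The 10-week diet array was the lowest of the 5 and the atorvastatin array the highest, close to the 1-week diet array, at a log2 ratio of 1.40. Slc14a2, a urea transporter best known from kidney, read 152, 187, 118, 222 and 464 in the same order, a log2 ratio of 1.07, and its other probe set gave 0.00. Slc2a9 was lower with atorvastatin by a log2 ratio of -1.02, at a signal close to both chow arrays. It was the only solute carrier past 2-fold with the diet at 10 weeks and past 2-fold the other way with atorvastatin.

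The other lower genes were dim on the atorvastatin array. Slc34a2 was at least 2.45-fold lower. Slc17a9, the vesicular nucleotide transporter, read 260.4, 294, 241, 281 and 129, at least 2.02-fold lower with atorvastatin, with the other 4 arrays close together. Slc9a3r2, the scaffold NHERF2 whose window is shown above, read 385, 447, 365, 540.1 and 248, a log2 ratio of -1.12 that its other measured probe sets, between -0.15 and 0.76, did not share in size. Slc23a2 gave -0.88 and Slc23a1 -0.85, neither past 2-fold, and the second measured probe set of Slc23a2 gave 0.10, the opposite sign.

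Some substrate families had most of their atorvastatin ratios on one side. Carriers of vitamins, choline and heme were below 1 in 11 of 13 measured genes, with a median log2 ratio of -0.22. Carriers of nucleosides, nucleotide sugars and acetyl-CoA were below 1 in 8 of 10 with a median of -0.34, and organic ion and bile acid carriers in 13 of 18 with a median of -0.13. Over all measured genes 4881 of 9295 were below 1. Slc25a25, an ATP-magnesium carrier of the Slc25a23 subfamily, read 2228, 2389, 1699, 2051 and 1124, a log2 ratio of -0.87, and Slc25a23 gave -0.86. Slc46a3, a lysosomal carrier, went the other way at 0.74, with signals of 487, 396, 505, 409.5 and 682.

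**Figure D4:**
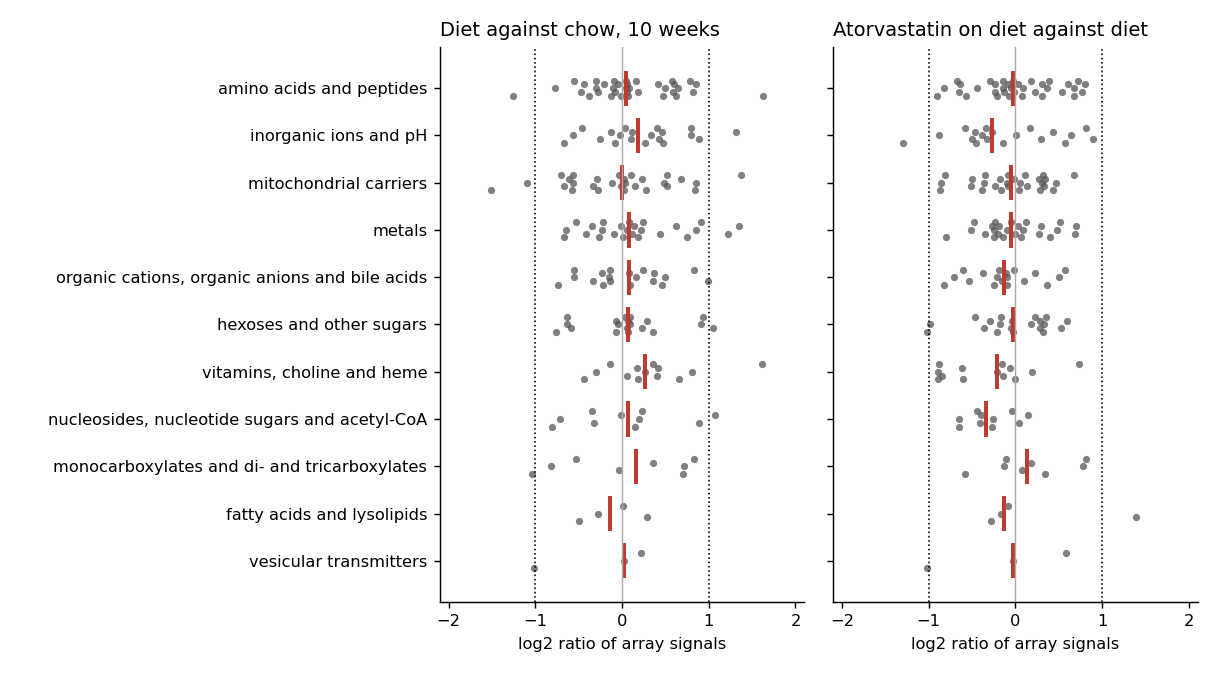
Log2 ratios of measured solute carriers by substrate family, 1 point per gene and a red bar at the family median, for the diet over chow at 10 weeks (left) and for atorvastatin on the diet over the diet (right); dotted lines mark 2-fold, and families with under 3 genes above the floor and the Slc-named genes that are no carriers are not drawn. Most points lie within 2-fold and the medians lie between -0.14 and 0.27 on the left and between -0.34 and 0.13 on the right.

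Against chow at 10 weeks, the atorvastatin array had 4 higher and 2 lower solute carriers past 2-fold of 186 measured, 3.23% against 5.51% of all genes (3.05% higher and 2.46% lower). Slc9a3r1 (log2 1.27), Slc34a1 and, as bounds, Slc6a6 (at least 3.82-fold) and Slc14a2 (at least 3.34-fold) were higher. The other probe set of Slc14a2 gave a log2 ratio of -0.06. Slc34a1, the sodium-phosphate cotransporter of kidney proximal tubule, read 259.6, 154, 162, 194 and 359.6, a log2 ratio of 1.15. It is itself 1 of 6 kidney markers with a probe set, and 2 of those 6 were below the floor on every array. The summed signal of the 6, which includes Slc34a1, was highest on the atorvastatin array, at 1410 against 759 to 1184 on the others. Aqp2, a water channel of the kidney collecting duct, read 197, 165, 318, 75.4 and 449, also highest there. The kidney markers Kap and Lrp2 were instead highest on the 10-week diet array, at 546.9 and 160.6. With atorvastatin Kap read 375.9 and Lrp2 71.2, the latter below the floor. The part of the kidney list in the ratios of Slc34a1 and Slc14a2 was not tested. Slc25a30 (log2 -2.01) and Slc38a2, the amino acid transporter SNAT2, were lower. Slc38a2 read 2234, 1994, 2497, 1912 and 1226, with the atorvastatin array below the other 4 and a log2 ratio of -1.03. Against the 1-week chow array the atorvastatin ratios on the log2 scale were 0.99 for Slc9a3r1, 0.47 for Slc34a1, 0.21 for Slc6a6, 1.61 for Slc14a2, -0.87 for Slc38a2 and 0.21 for Slc25a30, whose sign was opposite. In the same comparison 10 of 13 macrophage and Kupffer cell markers were higher past 2-fold, with a median log2 ratio of 1.39, and against the 1-week chow array 3 of 13 were higher, with a median of 0.63. Their part in the carrier ratios was not tested.

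**Figure D5:**
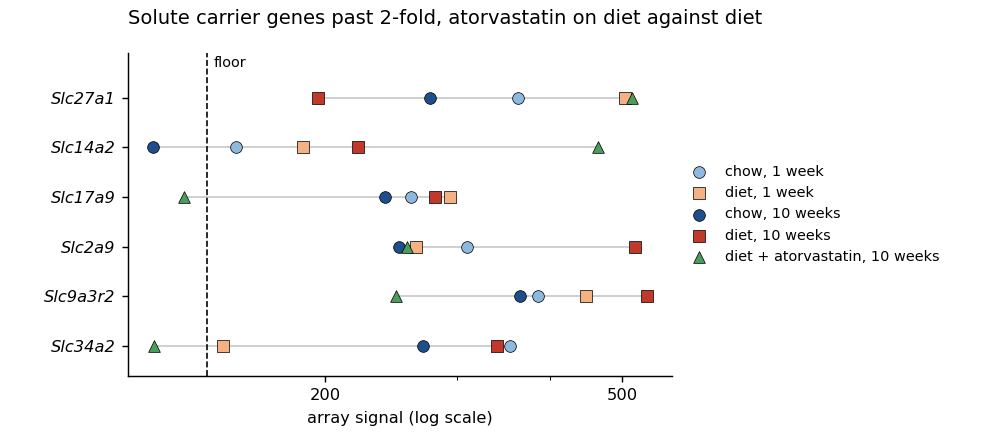
Array signal (log scale) of the 6 solute carrier genes past 2-fold between atorvastatin on the diet and the diet alone, 1 symbol per array, with the dashed line at the floor of 139. Slc27a1 and Slc14a2 are highest on the atorvastatin array, Slc34a2 and Slc17a9 fall below the floor on it, and Slc2a9 lies there beside the chow arrays.

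Some carriers differed between the 10-week and the 1-week arrays whatever the feed. All 3 arrays from 10 weeks were above both from 1 week for 29 of 198 genes above the floor (14.6%, against 15.5% of all genes), and below both for 13 (6.57%, against 11.2%). Both shares lie below those of all genes and are not a result about the solute carriers. Organic ion and bile acid carriers held 7 of the 29 among 19 genes, and mitochondrial carriers held 7 of the 13 among 28. The largest difference between the means of the 2 times was that of Slc22a27, which read 339 on chow and 136 on the diet at 1 week, and 735 on chow, 584 on the diet and 504 on the diet with atorvastatin at 10 weeks. Its relatives Slc22a29 and Slc22a30, also organic anion transporters of the mouse, read 332, 221, 645, 719.5 and 605 and 851, 572, 1419, 1518 and 1368 in the same order. All 3 were low at 1 week and lowest on the 1-week diet array. Their mean log2 differences between the times were 1.47, 1.27 and 1.04. In the RefSeq table of GRCm38.p6 the 3 genes lie near each other on chromosome 19. Slc22a26, which lies near them, did not have that order in time on the probe set used, with 1126, 808, 1638, 984 and 1456. Its other probe set did have it, with 894, 557, 1228, 1085 and 1523, so the order for this gene depends on the probe set. The probe sets of Slc22a27 and Slc22a29 are of the type that can share probes with related sequences, so signal may be split or shared among these related genes. Slc22a26, Slc22a29 and Slc22a30 were named after their values were seen.

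Other carriers had the same order in time. Slc39a1, the zinc importer ZIP1, read 1006, 843, 2586, 1622 and 1613, and Slc3a1, the heavy chain of the cystine and dibasic amino acid exchanger, read 497, 535, 1003, 917 and 1564. Both were higher on all 3 arrays from 10 weeks, Slc39a1 most on chow and Slc3a1 most with atorvastatin. Both 10-week diet arrays were above the other 3 for 33 of 198 genes (16.7%, against 17% of all genes) and below them for 21 (10.6%, against 11.6%). With a mean difference past 2-fold these were Slc14a2 and Slc23a1 on the higher side and Slc25a22 and Slc66a1 on the lower. The other probe set of Slc14a2 did not share that order. It read 137, 146, 213, 204 and 204, with 10-week chow the highest. Between the diet arrays alone, 14 of 184 measured solute carriers were higher and 6 lower at 10 weeks past 2-fold, 10.9% against 8.45% of all genes (4.78% higher and 3.68% lower), with a median log2 ratio of 0.23 beside 0.11. With quantile normalization that pair gave 8 higher and 6 lower, and with cyclic loess 9 and 8. The shares of all genes under these settings are not given here, so these counts do not show whether the solute carriers still exceed them. The median log2 ratio was 0.157 beside 0.045 over all genes with quantile normalization, and 0.151 beside 0.042 with cyclic loess. Over the alternatives the median of that pair ran from 0.14, for a floor at percentile 60, to 0.30, for one at percentile 20. Mice of the 10-week groups were also older, and age and time on feed cannot be told apart.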

How the data were processed

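RNA from pooled mouse livers was measured on 5 arrays, 1 for each group, and groups were taken from the sample titles. The authors deposited linear intensity values, 1 for every probe set on an array, made with MAS5 per the submitters' processing notes, whose version and scaling target are not stated in the sources used here. The 2% trimmed mean was 500.2 on every array as deposited. Arrays were brought to 1 shared 2% trimmed mean (factors 0.99997 to 1.00002), 64 control probe sets were left out of 22690, signals were floored at the 40th percentile and taken to log2. Of the probe sets 20393 had 1 gene symbol, 691 had several and 1606 are unnamed here, and 3 with several symbols that include an Slc name were left out. All 244 members matched the RefSeq gene table by gene identifier and 0 symbols changed. A single gene of the pattern is not reported here.

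With 1 array in each group there was no test and no p-value. Genes past 2-fold were counted beside the share of all measured genes, and the number of arrays limits the precision. The labels give no batch. Members, substrate families, lists and comparisons were chosen with earlier results of these data known, and the family of Slc4a1ap, Slc66a1, Slc66a2 and Slc17a9 was assigned after the data were seen. Genes named were, in every comparison, up to 8 members per direction past 2-fold and up to 3 bounds, the 3 brightest members of each family, members past 2-fold in several comparisons or in opposite directions with diet and atorvastatin, and 43 preset liver carriers, with part of these left to the counts. The alternatives tried were other chow arrays as reference, folds of 1.5 and 3, the mean of a gene's probe sets, omission of x and s probe sets, the 20th or 60th percentile as floor, a pseudocount instead of it, and cyclic loess, quantile normalization or no rescaling. Counting was tested on simulated data. Python 3.11.15, numpy 2.4.6, pandas 2.3.3, scipy 1.17.1, statsmodels 0.14.6 and matplotlib 3.10.9 were used.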

Additional observations from a re-analysis of the deposited data

Results flagged for a closer look

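The diet ratio had opposite signs at 10 weeks and at 1 week for 87 of 171 solute carriers, each on 1 array per group, and no difference between the times was tested. For 3 of them the ratio was past 2-fold at one time and past 1.5-fold the other way at the other. Slc23a1 (1.62 and -0.55) and Slc6a6 (1.63, a bound, and -0.34) fell short of 1.5-fold at 1 week. The log2 ratio of Slc25a30 was -1.51 at 10 weeks and 0.85 at 1 week, a difference of -2.36, and its signal was highest on the 10-week chow array. Its other measured probe sets gave 0.73, -0.14 and -0.24 at 1 week, so the sign at that time differed between them. Slc43a3 had log2 ratios of 1.07 and -0.74, a difference of 1.82, with its highest signal on the 1-week chow array. Slc66a1 had log2 ratios of -1.25, a bound, and 0.95, a difference of -2.21, with its highest signal on the 1-week diet array and its lowest on the 10-week diet array.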

How the results depend on the processing

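Over the alternatives run the median log2 ratio of the solute carriers lay between 0.05 and 0.10 for the diet at 10 weeks. It lay between -0.13 and -0.06 at 1 week, and between -0.11 and -0.07 for atorvastatin against the diet. Of 66 recomputed counts, which include those under the 1.5-fold and 3-fold rules, 32 moved by over 1.5 times. A floor at the 20th percentile gave 28 for the diet at 10 weeks (14 as reported), 17 for the diet at 1 week (4), 22 for atorvastatin against the diet (6), 28 for atorvastatin against chow (6) and 27 for the chow pair (7). A floor at the 60th percentile gave 8, 0, 0, 3 and 4. A 1.5-fold rule gave 57, 22, 44, 50 and 36, and a 3-fold rule gave 2, 0, 0, 3 and 2. A pseudocount in place of the floor gave 0 for the diet at 1 week, 0 for atorvastatin against the diet and 3 for the chow pair, and the mean of all probe sets gave 3 for atorvastatin against chow. For the diet at 10 weeks the 1-week chow array as reference gave 9 and the mean of both chow arrays 8. For the diet at 1 week the 10-week chow array, a reference added after seeing the data, gave 13. All alternatives for the pair of diet arrays were also added then. The counts in this paragraph are given without the shares of all genes under the same settings, so none of them is a result about the solute carriers. With the 1-week chow array as reference the sign turned for Slc25a30 (0.72 with the diet and 0.21 with atorvastatin), Slc43a3 (-0.23) and Slc6a6 (-0.0888). With all probe sets averaged Slc41a3 gave 0.43 and Slc6a6 0.00 for the diet at 10 weeks, Slc14a2 0.53 for atorvastatin, and Slc9a3r2 -0.03. Of 504 values of single genes 385 kept their side of the 2-fold rule and 115 fell short of it with the same sign. The cause was not tested. No paired analysis was possible because each group has 1 array. Signals near the floor limit Slc18a1, Slc34a2, Slc13a2, Slc17a9 and all bounds.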

Other observations

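In a list of 27 carriers and partner chains with other names that have a probe set, 0 of 16 measured genes were higher and 2 lower past 2-fold with the diet at 10 weeks. These were Slco2a1, a prostaglandin transporter, and Flvcr2, a transporter of the heme exporter family. Over all measured genes 3.59% were higher and 3.07% lower. Against the 1-week chow array 0 of 18 measured genes were higher and 2 lower, Slco1a1 and Flvcr2. There the log2 ratio was -1.26 for Flvcr2 and -0.64 for Slco2a1, which fell short of 2-fold. Slco1a1, an organic anion transporter of hepatocytes, read 808 on chow and 940.1 on the diet at 1 week, and 120.4 on chow, 52.2 on the diet and 232 on the diet with atorvastatin at 10 weeks.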
